A study of Mus musculus with 6 samples.

Results

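The thrombospondin genes Thbs1, Thbs2, Thbs3, Thbs4 and Comp were measured in single nuclei of mouse tibial periosteum before and after fracture. They were taken by gene symbol and make up 5 of the 30406 genes listed for all 6 libraries, and each was listed in every library. The mice were wild-type animals aged 12 weeks, males and females mixed, labelled C57BL6 (C57BL/6ScNj in the study's methods). The methods give anesthesia (ketamine and medetomidine, reversed with atipamezole) and analgesia (buprenorphine) with the fracture surgery, so effects of these drugs and of fracture cannot be told apart. Uninjured periosteum was collected from tibias of 4 mice in 2 libraries (replicates 1 and 2). Periosteum with hematoma was collected from tibias of 4 to 9 mice after an open, non-stabilized fracture, in 2 libraries at day 3 and 1 library each at days 5 and 7. The fractured tissue therefore holds blood and callus that the uninjured tissue lacks, and each library is a pool of animals. Nothing in the labels says that replicate libraries came from separate animals, so p-values measure only the spread between these libraries.

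Thrombospondins are secreted, calcium-binding glycoproteins of the extracellular matrix. The proteins of Thbs1 and Thbs2 assemble as trimers, carry repeats that Thbs3, Thbs4 and Comp lack, and are known as inhibitors of blood vessel growth. Thbs1 protein is stored in platelets and can activate latent TGF-beta. The proteins of Thbs3, Thbs4 and Comp assemble as pentamers. Thbs4 is known from tendon and muscle, and Comp (cartilage oligomeric matrix protein) binds collagens in cartilage and tendon. Receptors and partners of the family include CD36, CD47, integrins, syndecans, calreticulin and the scavenger receptor LRP1.

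Thbs1 transcripts were counted in nuclei outside the stroma as well as in it, and the part of free RNA in these levels was not tested. Thbs4 had its highest levels in a cluster with the tendon genes Mkx and Tnmd among its leading genes. Comp transcripts lay mostly in chondrocyte-like nuclei once these were present. At day 3 against uninjured, the only contrast with 2 libraries a side, Thbs1 rose over all non-myogenic nuclei and Thbs4 rose in a cluster led by Brinp1 and Fgf7. No other member was called by edgeR with all 4 libraries and a filter on low counts, and both calls depended on single libraries. Without that filter Comp was called lower in stromal nuclei.

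In GRCm38 with GENCODE M21, Thbs1 (ENSMUSG00000040152) lies at chr2:118111876-118127133 on the plus strand, and the noncoding gene Gm29233 overlaps it on the minus strand. Thbs2 (ENSMUSG00000023885) lies at chr17:14665500-14694235 on the minus strand. Thbs3 (ENSMUSG00000028047) lies at chr3:89215180-89226837 on the plus strand, wholly inside the span of Mtx1 (chr3:89209081-89227088), which runs on the minus strand. Thbs4 (ENSMUSG00000021702) lies at chr13:92751590-92794818 on the minus strand, and Comp (ENSMUSG00000031849) at chr8:70373558-70382066 on the plus strand. All 5 are protein-coding. Whether counting used the strand is not given in the sources used here, so reads of Thbs3 and Mtx1 may not be told apart.

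Promoters are shown for Thbs2, Thbs3 and Thbs4, the members with an entry in the promoter set used here. Across populations and libraries, Thbs2 and Thbs3 had the most alike levels of any pair of members (Pearson r = 0.769). Thbs4 correlated with Thbs2 at 0.543 and with Thbs3 at 0.406. The set, made from RefSeq (GRCm38.p6), held entries for 3 of the 5 members, and none for Thbs1 or Comp. Each line gives the 250 bases before the RefSeq start, 5′ to 3′ on the gene's own strand, at chr17:14694263-14694512 (minus strand) for Thbs2, chr3:89214930-89215179 (plus strand) for Thbs3 and chr13:92794819-92795068 (minus strand) for Thbs4. Capitals mark matches, on either strand, to the CCAAT box (CCAAT), the TATA box (searched as TATAAA) and the GC box (searched as GGGCGG), none of which overlapped.
Thbs2: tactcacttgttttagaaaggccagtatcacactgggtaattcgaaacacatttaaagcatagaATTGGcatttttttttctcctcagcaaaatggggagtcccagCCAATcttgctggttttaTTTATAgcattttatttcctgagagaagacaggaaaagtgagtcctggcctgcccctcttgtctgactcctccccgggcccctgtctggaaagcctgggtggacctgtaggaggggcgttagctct
Thbs3: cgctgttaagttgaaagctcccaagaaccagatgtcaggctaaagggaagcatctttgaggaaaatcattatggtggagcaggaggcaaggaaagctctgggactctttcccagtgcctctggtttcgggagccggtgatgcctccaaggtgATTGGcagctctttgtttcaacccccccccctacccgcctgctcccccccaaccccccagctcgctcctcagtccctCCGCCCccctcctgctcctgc
Thbs4: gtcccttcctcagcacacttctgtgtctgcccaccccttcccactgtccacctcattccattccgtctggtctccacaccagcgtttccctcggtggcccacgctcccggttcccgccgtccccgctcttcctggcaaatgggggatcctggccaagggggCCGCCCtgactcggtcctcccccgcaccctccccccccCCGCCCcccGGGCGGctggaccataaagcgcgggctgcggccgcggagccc
Thbs2 held CCAAT in both orientations, 144 and 186 bases before the start, and TATAAA in reverse 126 bases before it. Thbs3 held CCAAT in reverse at 98 bases and GGGCGG in reverse at 21 bases. Thbs4 held GGGCGG at 42 bases and in reverse at 51 and 89 bases, and no CCAAT in this window. Among 32851 promoter windows of this length, 33.85% held CCAAT, 12.37% held TATAAA and 32.74% held GGGCGG, so each of these matches is common.

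The libraries held 655 to 4712 barcodes, 13551 in all, and any 2 libraries shared 0 to 7 barcodes. Filters on gene number, mitochondrial and ribosomal reads left 8073 nuclei, and 6353 remained after myogenic nuclei were removed, 382 to 2096 per library. Levels are given as the UMIs (unique molecular identifiers, each a captured transcript) of a gene in a population and library, scaled to counts per 1000000 UMIs (CPM). Brackets give exact Poisson 95% intervals, which cover counting error only. In day 3 replicate 2, 1720 of 4712 barcodes passed the filters, with 10023619 of 29690462 UMIs of the genes listed for all libraries. It stood apart from the rest in depth, since 400 of the removed barcodes, those above 5000 genes, held 49.9% of its UMIs. These barcodes, which were not sorted by cell type, carried Thbs1 at 139 CPM against 122 CPM in the 1720 nuclei of that library that passed the filters, myogenic nuclei included. Thbs2 was at 90.9 against 44.0 CPM, Thbs3 at 36.2 against 21.8 CPM, Thbs4 at 153 against 67.3 CPM and Comp at 22.3 against 21.2 CPM. Stromal nuclei numbered 2952. They comprise clusters named like skeletal stem/progenitor cells (SSPC-like, 277 nuclei), fibroblasts (106), injury-induced fibrogenic cells (IIFC-like, 867), osteoblasts (356) and chondrocytes (415), and 2 unnamed clusters. One of the unnamed clusters was led by Brinp1 and Fgf7 (686 nuclei), and the other carried Mkx and Tnmd among its leading genes (245 nuclei). In the Mkx/Tnmd cluster the tendon markers Mkx, Tnmd and Fmod were at 495, 237 and 196 CPM, while Scx and Kera were at 12.7 and 9.06 CPM. No thrombospondin gene served for clustering or naming. Levels between clusters are a description with no test, and only combinations with at least 20 nuclei are given.

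**Figure D1:**
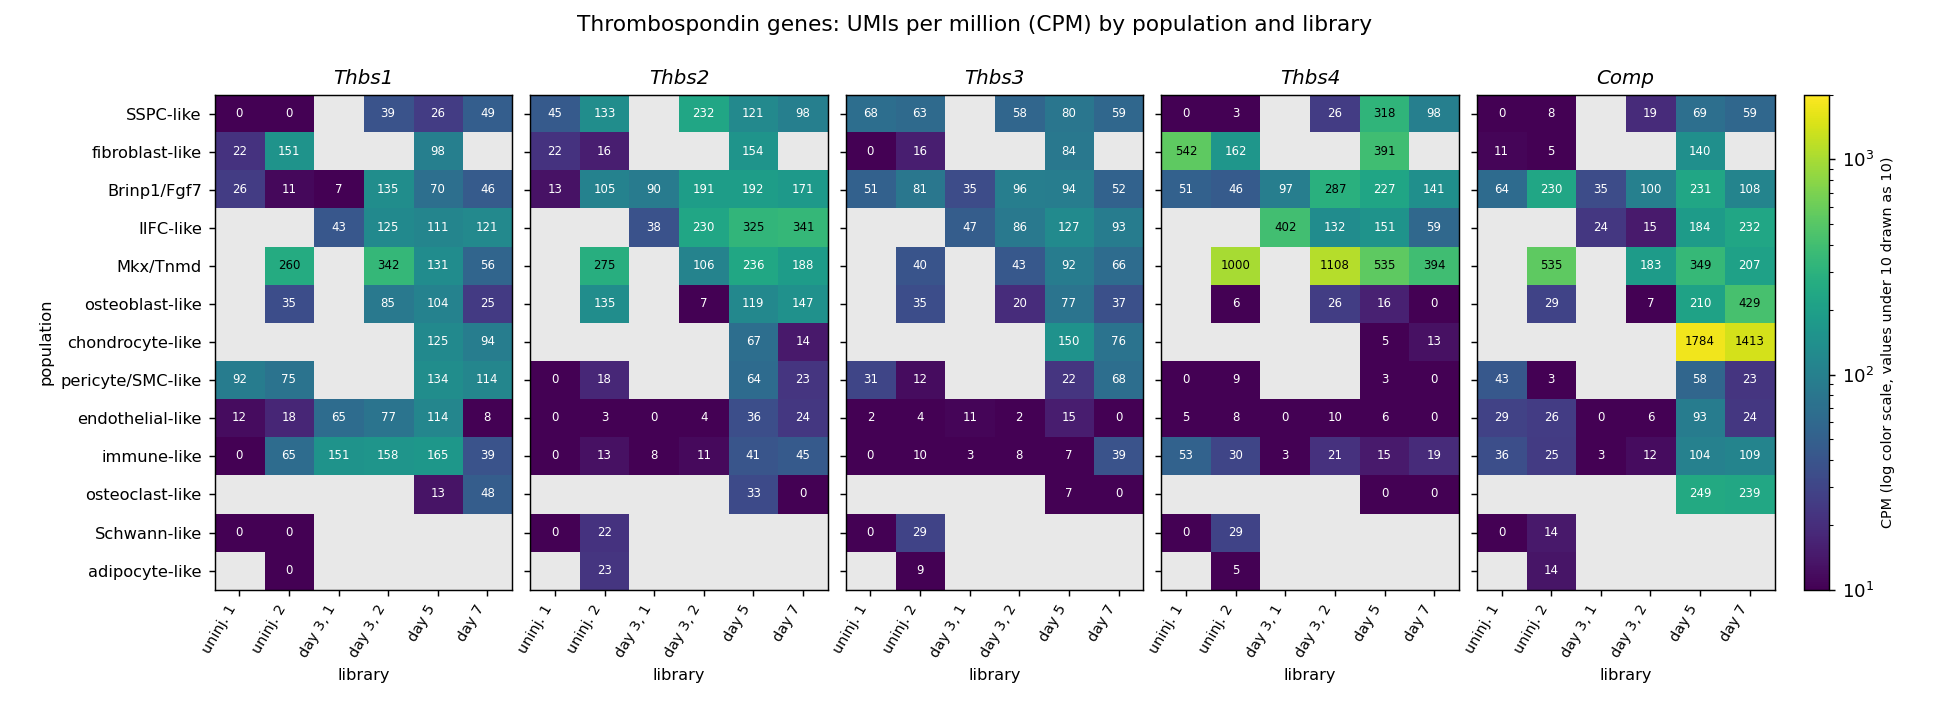
Level of each thrombospondin gene (CPM, log color scale) in each population (rows) and library (columns); gray cells have under 20 nuclei. Comp reached 1784 and 1413 CPM in chondrocyte-like nuclei at days 5 and 7, and Thbs4 was at 394 to 1108 CPM in the Mkx/Tnmd cluster.

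Over the stromal nuclei, none of the 5 genes passed the test at day 3 (quasi-likelihood test of edgeR, Benjamini-Hochberg adjusted p, threshold 0.05, n = 2 libraries against 2). Over all 10003 genes tested, 3.76% were called higher and 4.83% lower. Thbs1 stood at 17.4 and 56.4 CPM in uninjured replicates 1 and 2, at 38.9 and 140 CPM in day 3 replicates 1 and 2, and at 100.9 and 85.4 CPM at days 5 and 7. Day 3 replicate 1 lay between the uninjured libraries and day 3 replicate 2 above both. In uninjured replicate 2, 34 of the 95 Thbs1 UMIs came from 1 nucleus, and without it the level was 36.7 CPM, below day 3 replicate 1. With the nucleus holding the most Thbs1 UMIs left out of each library, day 3 replicate 1 (32.7 CPM) lay between the uninjured libraries again. The log2 fold change was 1.053 (SE 0.58, adjusted p = 0.345). Without day 3 replicate 1 it was 1.58 and passed the threshold (adjusted p = 0.0322), and without day 3 replicate 2 it was 0.05.

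Thbs2, whose protein organizes collagen fibrils, stood at 26.1 and 123 CPM in uninjured stroma, 64.8 and 181 CPM at day 3, and 212 and 170 CPM at days 5 and 7. The day 3 values were interleaved with the uninjured ones (log2 fold change 0.53, SE 0.58, adjusted p = 0.672), and the sign changed when uninjured replicate 1 (-0.07) or day 3 replicate 2 (-0.19) was left out. Thbs3, the least studied of the family, stood at 30.5 and 60.6, 41.0 and 81.4, and 112 and 73.0 CPM in the same order. Its day 3 values were interleaved with the uninjured ones too, with a log2 fold change of 0.30 (SE 0.46, adjusted p = 0.780) that turned to -0.04 and -0.09 without the same libraries.

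Thbs4 stood at 239 and 158 CPM in uninjured stroma, 412 and 267 CPM at day 3, 175 CPM at day 5 and 78.9 CPM at day 7. Both day 3 libraries lay above both uninjured libraries, and the day 7 value lay below all the others. In uninjured replicate 1, 26 of the 55 Thbs4 UMIs came from 1 nucleus, and without it the level was 128 CPM. With the nucleus holding the most Thbs4 UMIs left out of each library, the levels were 128 and 131 CPM uninjured and 347 and 246 CPM at day 3. With all nuclei, the log2 fold change at day 3 was 0.82 (SE 0.41, adjusted p = 0.292). It was 0.30 without day 3 replicate 1 and 0.50 without uninjured replicate 2. Comp stood at 74.0 and 168 CPM in uninjured stroma, 25.9 and 72.3 CPM at day 3, 458 CPM at day 5 and 594 CPM at day 7. Both day 3 libraries lay below both uninjured libraries, the nearer pair by a narrow margin, and the later libraries lay above every other. The log2 fold change of Comp at day 3 was -1.36 (SE 0.49, adjusted p = 0.135). It passed the threshold without uninjured replicate 1 (-1.81, adjusted p = 0.00518), without day 3 replicate 2 (-2.12, adjusted p = 0.0229) and without a filter on low counts (-1.31, adjusted p = 0.0381). It was smaller and did not pass without uninjured replicate 2 (-0.61, adjusted p = 0.637) or day 3 replicate 1 (-0.96, adjusted p = 0.322).

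**Figure D2:**
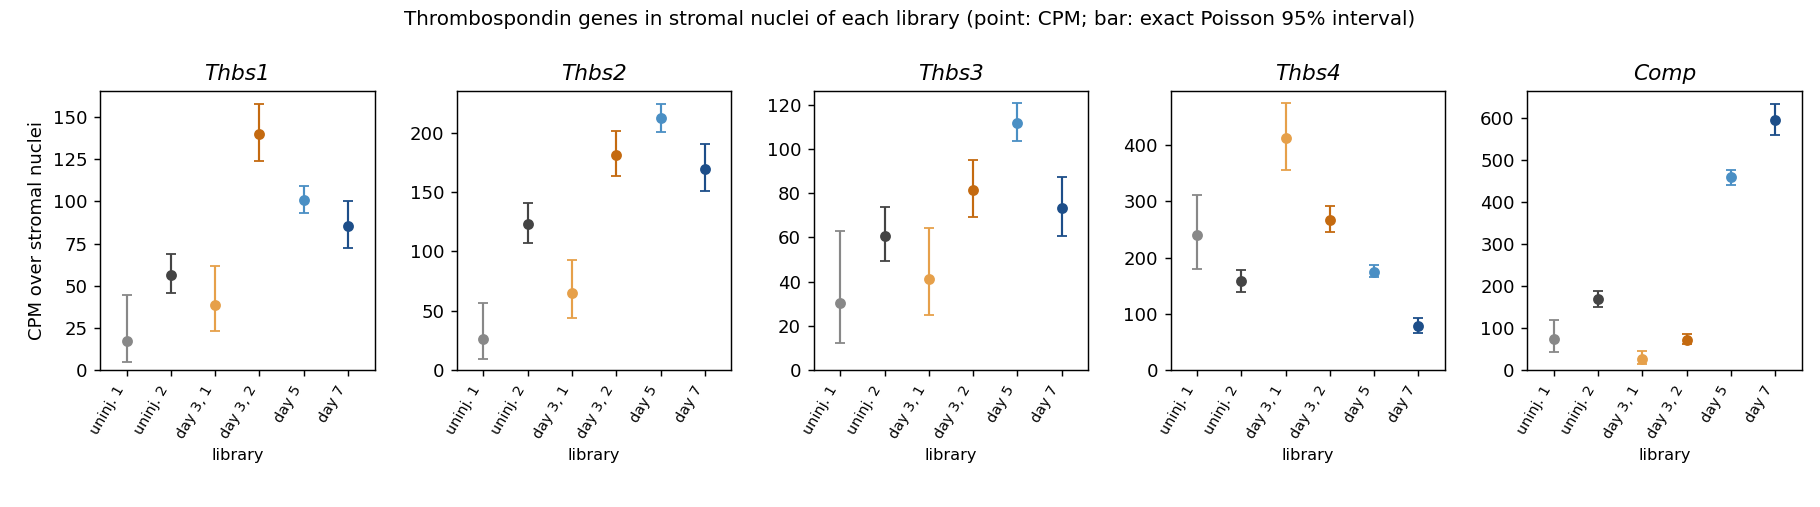
CPM of each gene over the stromal nuclei of each library, with exact Poisson 95% intervals as bars. Thbs4 is highest at day 3 (412 and 267 CPM) and Comp is lowest there (25.9 and 72.3 CPM) and highest at day 7 (594 CPM).

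Endothelial, immune and tendon markers differed between the libraries in the stromal nuclei. The summed level of 5 endothelial markers was 157 and 69.5 CPM in uninjured stroma against 13.0 and 39.2 CPM at day 3, with Emcn and Flt1 at 0 in day 3 replicate 1. The summed level of 7 immune markers was 13.1 CPM in both uninjured libraries, where Csf3r was at 0 in each and Csf1r, Mrc1 and Itgam also at 0 in replicate 1. It was 136 and 440 CPM at day 3, with Cd74 and S100a8 at 0 in replicate 1. The part of the endothelial and immune markers in the stromal values was not tested. The 5 tendon genes together were at 4.35 CPM in uninjured replicate 1, where Tnmd, Mkx, Scx and Kera were at 0, and 154 CPM in replicate 2, against 71.2 and 179 CPM at day 3. The make-up of the stromal nuclei differed too. IIFC-like nuclei numbered 5 and 8 uninjured and 67 and 103 at day 3. In the same order fibroblast-like nuclei numbered 33 and 35, then 3 and 3, and SSPC-like nuclei 28 and 82, then 8 and 22. Osteoblast-like nuclei numbered 6 and 82, then 6 and 26, and the Brinp1/Fgf7 cluster 50 and 134, then 44 and 96. In stromal sums, make-up and RNA per nucleus cannot be told apart. Nuclei of the Mkx/Tnmd cluster numbered 3 of 127 and 52 of 394 uninjured and 16 of 146 and 24 of 281 at day 3. With that cluster left out, the log2 fold change was 1.59 for Thbs1 (SE 0.53, adjusted p = 0.106), 0.93 for Thbs4 (SE 0.71, adjusted p = 0.511) and -1.18 for Comp (SE 0.44, adjusted p = 0.140). The Cell Ranger version also differed, since uninjured replicate 1, day 5 and day 7 were made with 6.0.0 and the rest with 7.1.0. Within 7.1.0, uninjured replicate 2 against both day 3 libraries gave a log2 fold change of -1.81 for Comp, and log2 fold changes of 0.59 for Thbs1 (adjusted p = 0.672) and 1.10 for Thbs4 (adjusted p = 0.158).

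Thbs1 rose at day 3 over all non-myogenic nuclei. It stood at 25.4 and 41.97 CPM in the uninjured libraries, 84.6 and 145 CPM at day 3, 110 CPM at day 5 and 76.9 CPM at day 7. Both day 3 libraries lay above both uninjured libraries (log2 fold change 1.71, SE 0.38, adjusted p = 0.0459 by edgeR and 0.00947 by DESeq2). It was the only member called there, where 2.73% of 12758 genes were called higher and 5.91% lower. The call was lost without uninjured replicate 1 (adjusted p = 0.267), uninjured replicate 2 (0.118) or day 3 replicate 2 (0.11), with log2 fold changes of 1.44 to 2.08 over the 4 libraries left out in turn. Without uninjured replicate 1, 1 gene was called in all. In such sums more cells of a type and more RNA per cell cannot be told apart, and the immune-like share of nuclei was 10.1% and 17.6% uninjured against 45.5% and 71.7% at day 3. They held 65.9% and 67.7% of the Thbs1 UMIs at day 3. The other members were not called, with log2 fold changes of 0.40 for Thbs2, 0.15 for Thbs3, 1.09 for Thbs4 and -1.56 for Comp (adjusted p = 0.798, 0.899, 0.238 and 0.102). Without day 3 replicate 2, Thbs4 passed (1.66, adjusted p = 0.0496).

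The immune-like nuclei (2065) of uninjured replicate 1 held few UMIs of immune markers. The summed level of 7 immune markers was 266 CPM there (15 UMIs, with Itgam, Csf3r and S100a8 at 0) and 3580 CPM in uninjured replicate 2, against 2142 and 4800 CPM at day 3. The summed level of 6 myogenic markers, none at 0, was 3124 and 1561 CPM uninjured against 1191 and 408 CPM at day 3, and its part in the values was not tested. In these nuclei Thbs1 was at 0 CPM in uninjured replicate 1 (49 nuclei, where 3 UMIs would be 53.3 CPM) and 65.5 CPM in replicate 2, where 12 of 26 UMIs came from 1 nucleus. It was at 151 [113 to 196] and 158 [147 to 171] CPM at day 3, 165 [142 to 192] CPM at day 5 and 38.5 [14.1 to 83.8] CPM at day 7. Both day 3 libraries lay above both uninjured ones, yet the test did not pass (log2 fold change 1.85, SE 0.78, adjusted p = 0.484). Without uninjured replicate 1 the log2 fold change was 1.34 (adjusted p = 0.817), and without uninjured replicate 2 the comparison is against 0 UMIs. In this population edgeR called 0 of 6573 genes (0% in each direction), 670 genes had an unadjusted p under 0.05 and DESeq2 called 167. Thbs4, the other member past the filter, was at 53.3 and 30.2 CPM against 2.79 and 21.5 CPM (log2 fold change -1.28, SE 0.95, adjusted p = 0.792, and -3.31 to -0.68 with 1 library left out).

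The makeup of the immune-like nuclei differed between the groups. A cluster led by Csf3r and Ptprc (Csf3r encodes the receptor for a neutrophil growth factor) held 26 of 49 and 94 of 165 nuclei in the uninjured libraries and 34 of 174 and 259 of 967 at day 3. The 26 nuclei of uninjured replicate 1 carried no Csf3r UMI, as given for all its immune-like nuclei. In that cluster Thbs1 was at 0 and 8.42 CPM, then 11.7 and 220 CPM at day 3, so the intervals of the 2 day 3 libraries did not overlap. A cluster led by Ccr2, a receptor of recruited monocytes, had 252 and 229 CPM at day 3, 242 CPM at day 5 and 52.1 CPM at day 7. A cluster with Mrc1, known from resident macrophages, had 102 and 80.5 CPM at day 3, 56.8 CPM at day 5 and 0 of 37 nuclei with a UMI at day 7. In the Ccr2 and Mrc1 clusters the day 3 libraries agree within their counting intervals. The next 3 clusters had fewer than 20 nuclei in day 3 replicate 1, so the day 3 libraries cannot be compared there. A second cluster led by Csf3r, with the neutrophil genes S100a8 and S100a9, had 124 [87.8 to 169] CPM in day 3 replicate 2 and 76.2 [9.23 to 275] CPM at day 7. A cluster with the antigen presentation genes Cd74 and H2-Ab1 had 53.1 CPM in day 3 replicate 2 and 51.2 CPM at day 5. A cluster with the lymphocyte genes Skap1 and Bank1 had 33.6 [10.9 to 78.5] CPM in day 3 replicate 2 and 158 [43.1 to 405] CPM at day 5. After thinning to 500 UMIs per nucleus, 9.20% and 6.31% of immune-like nuclei held a Thbs1 UMI at day 3, against 0% of 49 and 1.27% of 158 uninjured nuclei. Unthinned shares were 20.1% and 27.3% against 0% and 3.64%.

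Platelets store thrombospondin, so platelet genes were read beside these values. The summed level of 6 platelet genes in immune-like nuclei was 0 and 45.3 CPM in the uninjured libraries and 33.5 and 130 CPM at day 3, then 24.0 and 6.42 CPM at days 5 and 7. Gp9 and Gp1ba, which encode parts of the platelet receptor for von Willebrand factor, were at 0 in all 6 libraries of this population. The other genes of the list, Pf4, Ppbp, Itga2b and Gp6, all held UMIs in day 3 replicate 2. In day 3 replicate 1 Pf4, Ppbp and Itga2b did, and Gp6 was at 0. The part of platelet RNA in the Thbs1 values was not tested. Thbs1 UMIs were also found in the removed myogenic nuclei, and the part of free RNA in any of these levels was not tested. In the removed myogenic nuclei, Thbs1 stood at 3.70 and 1.02 CPM uninjured, 16.5 and 68.7 CPM at day 3, 19.4 CPM at day 5 and 14.7 CPM at day 7. The immune-like level at day 3 was above that of the myogenic nuclei in both libraries, with intervals that did not overlap.

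Endothelial-like nuclei (890) carried Thbs1 at 11.9 and 17.5 CPM in the uninjured libraries, 64.9 and 77.3 CPM at day 3, 114 CPM at day 5 and 7.93 CPM at day 7. Both day 3 libraries lay above both uninjured ones, and the day 7 library, with 1 UMI, lay below all. The summed level of 7 immune markers in the same nuclei was 4.76 (Ptprc, Mrc1, Cd74, Csf3r and S100a8 at 0) and 46.7 CPM uninjured against 151 (Csf1r, Cd74 and S100a8 at 0) and 317 CPM at day 3, and its part in the result was not tested. The test did not pass (log2 fold change 2.12, SE 0.52, adjusted p = 0.0666), with 1.47% of 6808 genes called higher and 1.76% lower. In day 3 replicate 2 the 77.3 [54.7 to 106] CPM overlapped the 68.7 [59.7 to 78.8] CPM of the myogenic nuclei, and in replicate 1 the 64.9 [23.8 to 141] CPM overlapped their 16.5 [10.5 to 24.8] CPM. After thinning, 0 of 39 and 0 of 64 endothelial-like nuclei held a UMI at day 3 (7.69% and 29.7% unthinned), a depth at which few UMIs of this gene would be seen. At day 5 the level of 114 [91.3 to 140] CPM was above the 19.4 [12.7 to 28.4] CPM of the myogenic nuclei. Comp, the other member tested, was at 28.6 and 25.9 CPM against 0 and 6.10 CPM (log2 fold change -2.54, SE 0.86, adjusted p = 0.164, and -6.97 without day 3 replicate 2, where it is against 0 UMIs), and Thbs2, Thbs3 and Thbs4 did not pass the filter, at 0 to 10.8 CPM in the 4 libraries.

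Pericyte/SMC-like nuclei (248, pericytes and smooth muscle cells) were the population with the highest Thbs1 level in uninjured replicate 1. They had 91.7 [51.3 to 151] and 74.9 [48.5 to 111] CPM in the uninjured libraries, 134 CPM at day 5 and 114 CPM at day 7. The intervals of these 4 libraries overlap. In uninjured replicate 1 these nuclei were 12.8% of the nuclei and held 62.5% of the 24 Thbs1 UMIs. They numbered 4 and 9 nuclei at day 3, fewer than the 20 required here, and no test was run on them. In the 72 Schwann-like nuclei Thbs1 had 0 UMIs, where 3 UMIs would be 13.7 CPM.

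**Figure D3:**
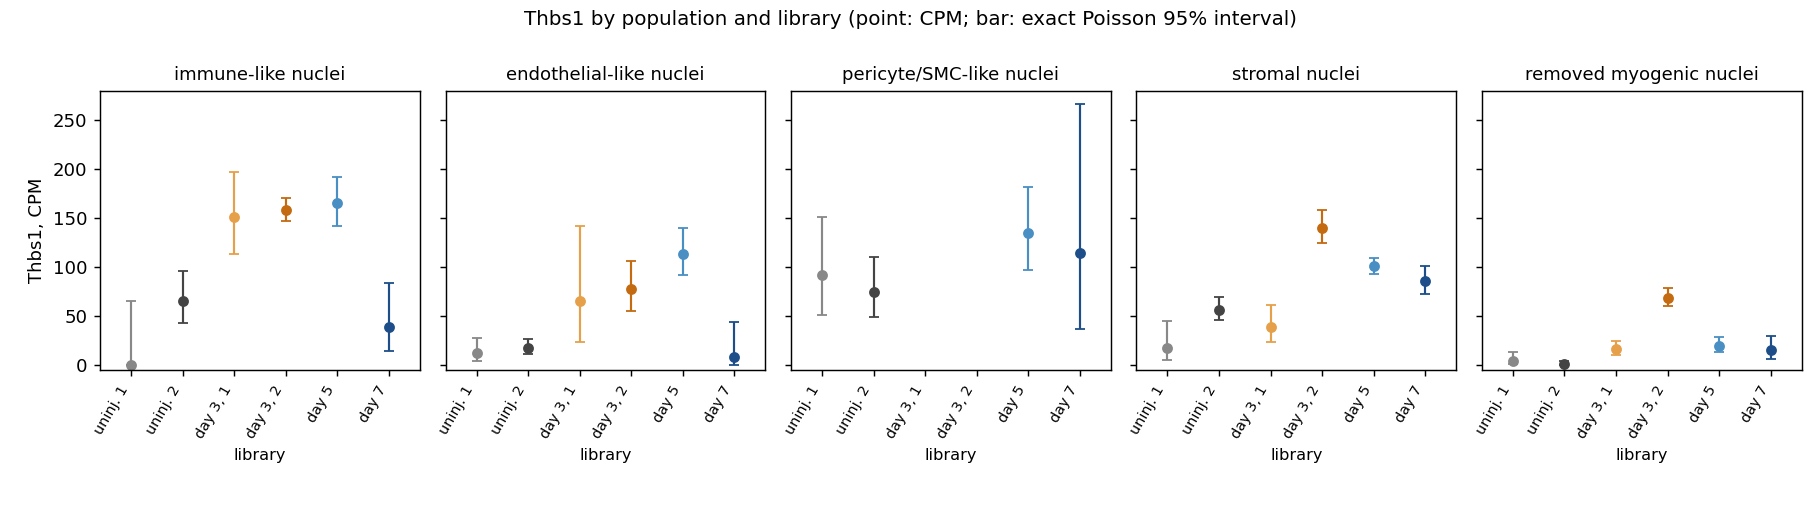
Thbs1 (CPM, exact Poisson 95% intervals as bars) by library in immune-like, endothelial-like, pericyte/SMC-like, stromal and removed myogenic nuclei. Immune-like nuclei are at 151 and 158 CPM at day 3, while myogenic nuclei of day 3 replicate 2 reach 68.7 CPM.

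Among stromal populations SSPC-like nuclei had the lowest Thbs1 level in uninjured replicate 2, day 3 replicate 2 and day 5. At day 7 they lay above the Brinp1/Fgf7 cluster and osteoblast-like nuclei (24.5 CPM), with overlapping intervals. SSPC-like nuclei held 0 UMIs in both uninjured libraries, where 3 UMIs would be 67.7 and 7.84 CPM. Their levels were 38.6, 25.6 and 49.0 CPM in day 3 replicate 2, day 5 and day 7. In IIFC-like nuclei, which were nearly absent before fracture (5 and 8 nuclei), Thbs1 was at 42.5 and 125 CPM at day 3, 111 CPM at day 5 and 121 CPM at day 7. In the Brinp1/Fgf7 cluster it was at 25.7 and 11.2 CPM uninjured, 6.92 and 135 CPM at day 3, 69.7 CPM at day 5 and 45.9 CPM at day 7. The day 3 libraries of that cluster lay on either side of the uninjured ones, and the log2 fold change of 2.56 did not pass (SE 0.91, adjusted p = 0.126). It passed without day 3 replicate 1 (3.13, adjusted p = 0.00195) or uninjured replicate 1 (2.72, adjusted p = 0.0418). In the Mkx/Tnmd cluster Thbs1 was at 260 CPM in uninjured replicate 2, where 34 of 52 UMIs came from 1 nucleus, 342 CPM in day 3 replicate 2, 131 CPM at day 5 and 56.3 CPM at day 7.

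Thbs2 was highest in stromal populations at days 5 and 7, and other populations overlapped the lower end of the stromal range. IIFC-like nuclei had 37.8 [16.3 to 74.5] and 230 [196 to 267] CPM at day 3, 325 [301 to 350] CPM at day 5 and 341 [294 to 394] CPM at day 7. The 2 day 3 libraries did not overlap each other, and days 5 and 7 overlapped. IIFC-like nuclei held 50.7% and 61.5% of the Thbs2 UMIs at days 5 and 7, from 19.8% and 24.4% of the nuclei. The Brinp1/Fgf7 cluster had 12.8 and 105 CPM uninjured, 89.9 and 191 CPM at day 3, 192 CPM at day 5 and 171 CPM at day 7, and its test did not pass (log2 fold change 0.95, SE 0.57, adjusted p = 0.452). Without uninjured replicate 2 the log2 fold change was 3.47 (adjusted p = 0.0344), against 1 UMI in uninjured replicate 1. The Mkx/Tnmd cluster had 275, 106, 236 and 188 CPM in uninjured replicate 2, day 3 replicate 2, day 5 and day 7. Chondrocyte-like nuclei were lower, at 67.2 [51.6 to 86.0] CPM at day 5 and 14.4 [6.22 to 28.4] CPM at day 7. Outside the stroma, pericyte/SMC-like nuclei had 64.0 [39.1 to 98.9] CPM at day 5, which overlaps the chondrocyte-like interval, and 1 UMI at day 7. Immune-like nuclei had 40.7 [29.5 to 54.6] CPM at day 5 and 44.9 [18.1 to 92.6] CPM at day 7, where the chondrocyte-like interval also overlaps. Endothelial-like nuclei held 0 to 4.07 CPM in the uninjured and day 3 libraries, 35.7 CPM at day 5 beside 31.4 CPM in the removed myogenic nuclei, and 23.8 CPM, from 3 UMIs, at day 7.

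Thbs3 varied least across stromal populations. At day 5 it was at 150 [127 to 177] CPM in chondrocyte-like, 127 [113 to 143] in IIFC-like, 93.6 [77.9 to 112] in Brinp1/Fgf7, 92.2 [68.4 to 122] in Mkx/Tnmd, 80.4 [50.4 to 122] in SSPC-like and 76.5 [57.1 to 100] in osteoblast-like nuclei. Fibroblast-like nuclei had 83.9 [30.8 to 183] CPM. Neighbours in this order overlap, except that the IIFC-like interval begins just above the upper end of that of the Brinp1/Fgf7 cluster. At day 7 chondrocyte-like nuclei had 75.6 [54.5 to 102] CPM, below the day 5 value with no overlap of intervals. In SSPC-like nuclei Thbs3 stayed between 57.9 and 80.4 CPM in the 5 libraries with enough nuclei. Endothelial-like nuclei had 0 to 15.3 CPM, and their day 5 value was no higher than the 21.7 CPM of the removed myogenic nuclei. In the Brinp1/Fgf7 cluster Thbs3 was at 51.3 and 80.9 CPM uninjured and 34.6 and 95.6 CPM at day 3, with a log2 fold change of 0.00 (SE 0.50, adjusted p = 1.00).

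Thbs4 reached its highest levels in the Mkx/Tnmd cluster. This cluster had 1000 [866 to 1148] CPM in uninjured replicate 2, 1108 [969 to 1260] CPM in day 3 replicate 2, 535 [475 to 600] CPM at day 5 and 394 [284 to 533] CPM at day 7. The first pair of libraries overlap each other, the later pair overlap each other, and the pairs do not meet. This order depended on the clustering, since at resolution 0.8 the level was 626.9 CPM in uninjured replicate 2 and 653.5 CPM at day 5. In uninjured replicate 2, 49 of 200 UMIs came from 1 nucleus, and the other libraries had 3 and 16 nuclei of this cluster. After thinning, 21.2%, 37.5%, 20.2% and 9.80% of its nuclei held a Thbs4 UMI in the same order, and 48.1%, 79.2%, 52.5% and 19.6% did so unthinned. In pericyte/SMC-like nuclei, at a median of 2716 UMIs against 3058, 0 of 248 thinned nuclei held one. The cluster was 5.56% of the nuclei of uninjured replicate 2 and held 67.8% of its Thbs4 UMIs.

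The fibroblast-like cluster came next, at 542 [402 to 715] CPM in uninjured replicate 1, 162 [110 to 230] CPM in uninjured replicate 2 and 391 [260 to 566] CPM at day 5. The uninjured libraries did not overlap, and in replicate 1 this cluster held 50 of the 60 Thbs4 UMIs, 26 of them in 1 nucleus. IIFC-like nuclei had 402 [321 to 497] and 132 [107 to 160] CPM at day 3, 151 [135 to 169] CPM at day 5 and 59.3 [40.6 to 83.8] CPM at day 7, the lowest of these 4 values. SSPC-like nuclei had 0 and 2.61 CPM uninjured, 25.7 CPM in day 3 replicate 2, 318 CPM at day 5, where 39 of 87 UMIs came from 1 nucleus, and 98.0 CPM at day 7. Chondrocyte-like nuclei had 5.33 and 12.6 CPM at days 5 and 7, no more than the 13.4 and 9.21 CPM of the removed myogenic nuclei beyond counting error.

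In the Brinp1/Fgf7 cluster Thbs4 rose at day 3. It was at 51.3 and 46.04 CPM in the uninjured libraries, 96.8 and 287 CPM at day 3, 227 CPM at day 5 and 141 CPM at day 7. Every injured library lay above both uninjured libraries. The log2 fold change at day 3 was 2.09 (SE 0.52, adjusted p = 0.0293 by edgeR), the only call among the 5 members in this cluster, where 2.77% of 6754 genes were called higher and 3.72% lower. DESeq2 did not call it (2.005, adjusted p = 0.165), nor did edgeR without day 3 replicate 2 (1.21, adjusted p = 0.473) or without uninjured replicate 2 (1.96, adjusted p = 0.0826). Within Cell Ranger 7.1.0, that is without uninjured replicate 1, it stayed called (2.02, adjusted p = 0.0266). This cluster was tested apart after the data were seen. Comp in the same cluster was at 64.2 and 230 CPM uninjured, 34.6 and 99.97 CPM at day 3, 231 CPM at day 5 and 108 CPM at day 7, so that its day 3 and uninjured libraries overlapped.

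**Figure D4:**
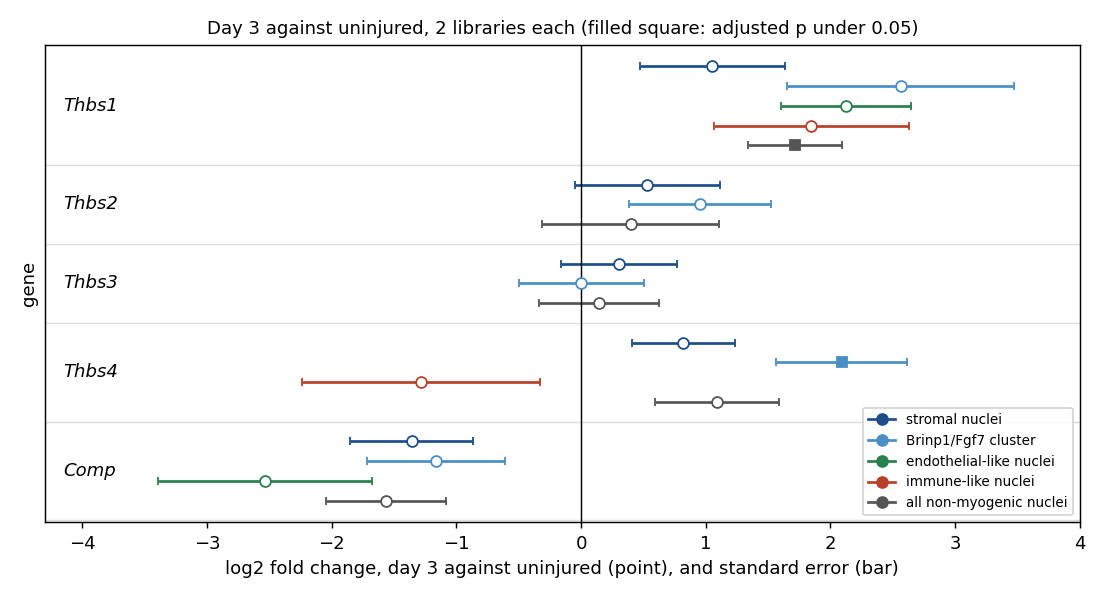
Log2 fold change at day 3 against uninjured (points, SE as bars) for each gene in the 5 sets of nuclei tested, 2 libraries against 2; filled squares passed an adjusted p of 0.05. The filled points are Thbs1 over all non-myogenic nuclei (1.71) and Thbs4 in the Brinp1/Fgf7 cluster (2.09).

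Comp was led by chondrocyte-like nuclei, which numbered 164 and 239 at days 5 and 7 and at most 7 in any earlier library. They had 1784 [1700 to 1872] CPM at day 5 and 1413 [1316 to 1515] CPM at day 7. These nuclei held 56.0% of the Comp UMIs from 7.82% of the nuclei at day 5, and 75.6% from 21.6% at day 7. After thinning, 52.4% [44.5 to 60.3, exact Clopper-Pearson 95% interval] and 45.6% [39.2 to 52.2] of them held a Comp UMI (81.7% and 72.8% unthinned). Among endothelial-like nuclei, which are not known to make Comp, 7.11% [4.20 to 11.1] did at day 5 and 0 of 78 at day 7 (19.6% and 3.85% unthinned), at median depths of 2283 and 1024 UMIs against 4694 and 1579 UMIs in chondrocyte-like nuclei. At day 5 Comp was at 93.2 CPM in endothelial-like, 104 CPM in immune-like and 77.6 CPM in removed myogenic nuclei.

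Other stromal populations lay above those levels in some libraries. Osteoblast-like nuclei had 29.3 CPM in uninjured replicate 2, 6.52 CPM in day 3 replicate 2, 210 [177 to 248] CPM at day 5 and 429 [299 to 597] CPM at day 7. IIFC-like nuclei had 23.6 and 14.8 CPM at day 3, then 184 [166 to 203] and 232 [193 to 276] CPM at days 5 and 7, and the day 3 and later intervals do not meet. The Mkx/Tnmd cluster had 535 CPM in uninjured replicate 2 (51 of 107 UMIs in 1 nucleus), 183 CPM in day 3 replicate 2, 349 CPM at day 5 and 207 [129 to 313] CPM at day 7, the last overlapping the 109 [63.6 to 175] CPM of immune-like nuclei. In the Brinp1/Fgf7 cluster the day 3 log2 fold change of Comp was -1.16 (SE 0.55, adjusted p = 0.296). It was -1.73 (adjusted p = 0.0335) without uninjured replicate 1 and 0.18 without uninjured replicate 2. SSPC-like nuclei stayed at 0 to 69.5 CPM, within the range of those nuclei. Osteoclast-like nuclei showed 249 CPM at day 5, where 34 of the 38 UMIs came from 1 nucleus, and 239 [115 to 440] CPM at day 7, where 7 of 10 UMIs did.

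Across the 49 combinations of population and library with at least 20 nuclei, the members were compared on log2(CPM + 10). These combinations share libraries and depth, so the correlations are a description. Thbs2 and Thbs3 were the most alike pair (Pearson r = 0.769), and Thbs1 and Thbs2 the least (0.258). Comp correlated with the others at 0.268 (Thbs4) to 0.502 (Thbs3). Among 10114 genes, those most like Thbs2 were Fam171b (0.847), P4ha3 (0.833), Postn (0.816), Dnm3os (0.813) and Robo1 (0.808), of which Postn encodes periostin, a fibrogenic matrix protein. Those most like Thbs3 were Tmem45a (0.825), Col3a1 (0.816), Sh3rf3 (0.816), Col5a2 (0.813) and Col5a1 (0.810), with 3 fibrillar collagen chains among them.

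The genes most like Comp were Stk26 (0.827), Adamts3 (0.781), Col2a1 (0.767), Epha3 (0.739) and Acan (0.737). Adamts3 processes procollagen, and Col2a1 and Acan encode the main collagen and proteoglycan of cartilage. The genes most like Thbs4 were Cilp (0.825), Eya2 (0.771), Adamtsl3 (0.763), Bnc2 (0.739) and Abi3bp (0.738), where Cilp, Adamtsl3 and Abi3bp encode matrix proteins. For Thbs1 the highest values were lower than for the other members, with Actn1 (0.644), Sertad2 (0.640), Cyr61 (0.637), Emilin1 (0.621) and Cnn2 (0.620), and Actn1 and Cnn2 encode actin-binding proteins.

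Few nuclei showed 2 members at once after thinning. In the Mkx/Tnmd cluster at day 5, 5 of 99 nuclei held both Thbs4 and Comp, beside 3.43 from the product of the single shares. Chondrocyte-like nuclei at day 5 gave 7 of 164 with Thbs3 and Comp beside 7.87, and IIFC-like nuclei gave 7 of 412 with Thbs1 and Thbs2 beside 3.58. These counts are too low to show whether members share nuclei.

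Receptors and partners were read in the stromal test as lists. Of 13 receptor genes 10 were tested, with 0 called higher and 2 lower, beside 3.76% called higher and 4.83% lower over all genes tested, and a median log2 fold change of 0.23 against 0.06 over all genes. Itga6, an integrin chain that pairs for laminin and thrombospondin binding, fell from 431 and 153 CPM to 6.48 and 31.6 CPM (log2 fold change -3.77, SE 0.64, adjusted p = 0.00943). It stayed called with each library left out (-5.25 without day 3 replicate 2 to -2.94 without uninjured replicate 1), but not over all non-myogenic nuclei (-1.07, adjusted p = 0.139). Itgb3, the beta chain of the integrin that binds vitronectin, fell from 43.5 and 49.3 CPM to 4.32 and 10.0 CPM (-2.60, SE 0.57, adjusted p = 0.0244). Neither gene's groups overlap. Itgb3 was not called without uninjured replicate 2 (adjusted p = 0.238) or by DESeq2 (0.0529). Both are also made by endothelial cells, whose markers were lower in the same nuclei, as given with the stromal values. The part of these cells, or of the make-up of the stromal nuclei, in the falls was not tested. By edgeR, Itgb3 was also called lower over all non-myogenic nuclei (-2.03, adjusted p = 0.0436) and in the Brinp1/Fgf7 cluster (-3.09, adjusted p = 0.0365). Itga6 was not called in that cluster (-2.03, adjusted p = 0.129). In endothelial-like nuclei neither was called (log2 fold change -0.21 for Itga6 and 0.31 for Itgb3).

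Of the 7 latent TGF-beta genes, all tested, 1 rose and 1 fell, beside the same shares of 3.76% and 4.83% over all genes, with a median of 0.24. Ltbp2, a microfibril protein that does not bind latent TGF-beta itself, rose from 21.8 and 8.32 CPM to 332 and 252 CPM and was at 120 and 58.3 CPM at days 5 and 7 (log2 fold change 4.68, SE 0.54, adjusted p = 0.00209, and 3.73 to 5.11 with 1 library left out). Ltbp4, which binds latent TGF-beta, fell from 152 and 207 CPM to 25.9 and 47.7 CPM (-2.30, SE 0.38, adjusted p = 0.00866). The groups did not overlap for either gene, and Ltbp4 was not called without uninjured replicate 2 (adjusted p = 0.0754). Of 6 proteases known to cleave or bind thrombospondins 4 were tested (median 0.29), and 1 was called higher, beside the same shares. Adamts4, an aggrecanase, was at 0 and 0.594 CPM uninjured, the latter 1 UMI, and at 13.0 and 17.1 CPM at day 3. The fitted log2 fold change was 4.597 (SE 1.06, adjusted p = 0.0287 by edgeR). With uninjured counts this low, it passed the filter on low counts only through the day 3 libraries, and the fitted size rests on a group near 0. Without that filter it stayed called (4.63, adjusted p = 0.0157). DESeq2 did not make the call (adjusted p = 0.138), and it was lost over all non-myogenic nuclei (2.92, adjusted p = 0.0697). In endothelial-like nuclei edgeR called it higher (4.72, SE 0.83, adjusted p = 0.0263), beside 1.47% of genes. Adamts4 did not pass the filter on low counts without uninjured replicate 2 or without day 3 replicate 2. None of 4 tested of 10 cartilage matrix partners (median 0.93) or 3 tested of 5 tendon genes (median 0.81) was called, and none of the 6 platelet genes passed the filter.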

How the data were processed

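Single-nucleus RNA was measured in 6 libraries of mouse tibial periosteum. The authors deposited raw UMI counts per gene and barcode, not normalized, made with Cell Ranger 6.0.0 or 7.1.0 on mm10 from intronic and exonic reads. Genes were limited to the 30406 listed for all libraries, which kept at least 98.85% of UMIs. The filter kept 8073 nuclei, those having 200 to 5000 genes and less than 2% of UMIs from mitochondrial and 1.5% from ribosomal genes. Clusters with at least 3 of 6 myogenic markers in at least 50% of nuclei were removed, and the rest was integrated with Seurat 5.3.0 (20 components, resolution 1.3) without the 5 thrombospondin genes among the features. Clusters were named from fixed markers, with names ending in -like, and unnamed clusters nearest to a stromal class were counted as stromal, a choice made after seeing the data. Named populations are rebuilt and may differ from the study's. Scrublet marked 1 to 19 nuclei per library as doublets at an expected rate of 6%, too few to rely on the caller, and doublets were kept.

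UMIs were summed per library and population. Day 3 was tested against uninjured, 2 libraries each, with edgeR 4.0.16 (filterByExpr, TMM, quasi-likelihood test, two-sided, Benjamini-Hochberg over all genes tested, threshold 0.05). DESeq2 1.42.0 was an alternative. Fold changes are fitted values with a small prior count. Shares of nuclei used nuclei thinned to 500 UMIs, with exact Clopper-Pearson intervals, and CPM has exact Poisson intervals. A count of 0 was read against 3 UMIs. Days 5 and 7 have 1 library each and no test. Named genes were the 5 members, the 5 genes with the highest Pearson correlation of log2(CPM + 10) with each, among genes reaching 50 CPM, and every listed receptor, partner, protease, tendon or platelet gene that passed the stromal test. The members and lists were chosen with earlier results of these data known. Promoters are RefSeq's (GRCm38.p6) and positions GENCODE M21. Scripts ran in Python 3.11.15 (scanpy 1.11.5, pandas 2.3.3, scipy 1.17.1, numpy 2.4.6) and R 4.3.3. The level of 1 immune-like cluster is not reported here.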

Additional observations from a re-analysis of the deposited data

Results flagged for a closer look

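Thbs4 levels at day 3 lay on opposite sides of the uninjured levels in different populations, and of these the change in the Brinp1/Fgf7 cluster alone passed the test. The mean over the 2 day 3 libraries minus that of the 2 uninjured libraries was 143 CPM in the Brinp1/Fgf7 cluster and 141 CPM over all stromal nuclei, where both day 3 libraries lay above both uninjured ones. In immune-like nuclei the same difference was -29.6 CPM, with both day 3 libraries below both uninjured ones, and rested on 3, 12, 1 and 93 UMIs. The difference between the populations was not tested.

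Myogenic nuclei, which were removed before the comparisons, held thrombospondin UMIs above the uninjured level in some injured libraries. Thbs1 was at 68.7 CPM in day 3 replicate 2, Thbs2 at 31.4 CPM and Thbs3 at 21.7 CPM at day 5, and Comp at 77.6 CPM at day 5 and 79.2 CPM at day 7. In the uninjured libraries the same nuclei held Thbs1 at 3.70 and 1.02, Thbs2 at 0 and 1.02, Thbs3 at 3.70 and 2.04 and Comp at 11.1 and 6.11 CPM. The source of these UMIs was not tested.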

How the results depend on the processing

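With 2 libraries a side, leaving out 1 library changed several calls. Genes called in stromal nuclei numbered 859, against 389 over all barcodes without any filter, 1419 without a filter on low counts and 323 to 1189 with 1 library left out (323 without uninjured replicate 2). They numbered 4 (without day 3 replicate 2) to 467 in endothelial-like nuclei (220 with all 4 libraries), 0 to 165 (without day 3 replicate 1) in immune-like nuclei (0, and 167 by DESeq2), 1 (without uninjured replicate 1) to 1620 over all non-myogenic nuclei (1102) and 301 to 530 in the Brinp1/Fgf7 cluster (438, and 240 by DESeq2). Where an arm is left with 1 library, that library is assumed to vary like the others.

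In stromal nuclei the log2 fold change with 1 library left out ranged from 0.055 to 2.30 for Thbs1, -0.19 to 2.17 for Thbs2, -0.093 to 0.97 for Thbs3, 0.30 (without day 3 replicate 1) to 1.25 for Thbs4 and -2.12 to -0.61 for Comp. It was 1.71 for Thbs1 with all non-myogenic nuclei in place of stromal nuclei and -1.31 for Comp without a filter on low counts, and both of these passed the threshold. Over all non-myogenic nuclei it ranged from 1.44 to 2.08 for Thbs1, -0.27 to 2.21 for Thbs2, -0.21 to 0.81 for Thbs3, 0.26 to 1.66 for Thbs4 and -2.07 to -1.01 for Comp. In the Brinp1/Fgf7 cluster it ranged from 1.62 to 3.13 for Thbs1, 0.39 to 3.47 for Thbs2, -0.83 to 0.44 for Thbs3, 1.21 to 2.43 for Thbs4 and -2.06 to 0.18 for Comp. By DESeq2 in that cluster it was -0.054 for Thbs3 and 2.005 for Thbs4, which no longer passed. The causes were not tested. Of the fold changes recomputed, 172 kept their direction and side of the threshold, 10 passed it newly, 15 no longer passed and 10 changed sign.

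Levels moved by more than their counting interval in 19 of 78 recomputed values, among them stromal Thbs1 and Thbs4 with 1 nucleus left out, an alternative chosen after seeing the data. As a mean over nuclei of the CPM of each nucleus, Thbs1 in immune-like nuclei was 182.5 (day 3 replicate 2) and 202.0 (day 5), Thbs3 in IIFC-like nuclei 147.5 (day 5), Thbs4 in the Mkx/Tnmd cluster 837.8 (uninjured replicate 2) and Comp in chondrocyte-like nuclei 2444 (day 5). At resolution 0.8, Thbs2 in IIFC-like nuclei was 271.5 and 279.8 (days 5 and 7), Thbs3 there 112.3 (day 5), and Thbs4 in the Mkx/Tnmd cluster 626.9 (uninjured replicate 2) and 653.5 (day 5). Without integration, Thbs2 in IIFC-like nuclei was 282.1 and 269.3 (days 5 and 7) and Comp in chondrocyte-like nuclei 2135 (day 5). Shares of nuclei with a UMI rose with depth kept. Thinned to 1000 UMIs they were 10.87% (Thbs1, immune-like, day 3 replicate 2), 28.18% (Thbs2, IIFC-like, day 5), 32.65% (Thbs4, Mkx/Tnmd, day 5) and 64.09% (Comp, chondrocyte-like, day 7), and unthinned 27.3%, 58.94%, 52.52% and 72.8% in that order, and 81.71% for Comp at day 5.

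No paired analysis was possible because the labels give the libraries no replicate numbers, and the numbers used here only name libraries in the order they are listed. No test was run on pericyte/SMC-like nuclei, which numbered fewer than 20 in both day 3 libraries, and members below the filter in a subset of libraries have no value there, such as Thbs1 in the Brinp1/Fgf7 cluster without day 3 replicate 2.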
